A study of Mus musculus with 34 samples.

Results

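Chromatin binding of p65 (RelA) was described in CTCF-deficient bone marrow-derived dendritic cells (BMDCs) before and after LPS, the bacterial cell wall component sensed by TLR4. The p65 peaks were those of the KO list (504 peaks, unstimulated cells) and the KOLPS list (1752 peaks, LPS-stimulated cells), which together make 2256 of the 1393623 peaks in the 30 ChIP-seq lists of the series. A peak was called shared when it overlapped a peak of the other list by at least 1 bp, KO only when it had no such partner after LPS, and KOLPS only when it had none before LPS. The comparison addresses where p65 was found on chromatin when CTCF-deficient cells met LPS, and what those places carried beforehand.

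Bone marrow came from C57BL/6 mice 8 weeks old. KO and KOLPS cells had the genotype CreER;CTCF fl/fl, a tamoxifen-inducible Cre with loxP-flanked Ctcf alleles, and the comparison cells WT and WTLPS had CreER alone. Cells grew in GM-CSF for 6 days, with 4-OH tamoxifen on the first day under a protocol stated alike for every sample, and the KOLPS and WTLPS groups received LPS at 100 ng/ml for 3 h. For STAT5 ChIP-seq, cells were given GM-CSF again for 15 min. The methods describe peak calling for each sample and biological replicate, whereas the reporting summary says in general that replicates were combined and processed again once they were found reproducible. Each condition and antibody has 1 peak list here, which does not say which of these it is. No spread between replicates could therefore be measured and no difference between lists was tested. Intervals are 95% Wilson intervals on shares of peaks and cover counting error only. Where a count was 0, the share it is said to allow is that of 3 counts, which is lower than the Wilson limit. The deposited CTCF list held 20151 peaks in KO and 11576 in KOLPS, against 60537 in WT and 54020 in WTLPS, so the CTCF-KO lists were shorter but not empty. H3K4me3, a mark of active promoters, lay at the starts of 16 of 16 dendritic and myeloid marker genes in both KO and KOLPS, at 1 of 6 T cell markers (Lck), 2 of 5 B cell markers (Pax5 and Ebf1), 2 of 4 stromal markers and 0 of 5 neutrophil markers, and at 3 of 5 erythroid or megakaryocyte markers in KO and 2 of 5 in KOLPS.

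p65 is the NF-κB subunit that carries a strong activation domain. In resting cells IκB proteins hold most NF-κB dimers in the cytoplasm, and TLR4 signalling leads to IκB degradation and entry of p65 into the nucleus, where it binds κB sites at promoters and enhancers of cytokine, chemokine and survival genes. Among its targets are genes of its own inhibitors, such as Nfkbia (IκBα) and Tnfaip3 (A20), which limit the response.

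The following windows, reaching 50 bp to either side of p65 summits, show the NF-κB consensus as it occurs in shared, KOLPS-only and KO-only peaks. Capitals mark every match to the degenerate NF-κB consensus on either strand, the letters are those of the plus strand of the RefSeq GRCm38 (mm10) genome, and none of these windows overlaps an annotated exon. Nfkbia, Cxcl10 and Il1f6 (IL-36α) are peaks at the promoters of those genes, and the others carry the name of the protein-coding gene with the nearest start.
Nfkbia, shared, chr12:55491875-55491975: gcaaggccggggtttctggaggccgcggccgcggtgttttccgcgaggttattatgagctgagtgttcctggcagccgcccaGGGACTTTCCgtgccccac
Marcks, shared, chr10:37338379-37338479: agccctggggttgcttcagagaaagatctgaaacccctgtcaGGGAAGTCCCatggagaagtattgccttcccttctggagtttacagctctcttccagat
Ets2, shared, chr16:95728976-95729076: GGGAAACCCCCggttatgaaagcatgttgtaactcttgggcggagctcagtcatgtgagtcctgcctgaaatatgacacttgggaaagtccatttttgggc
Mylk2, shared, chr2:152904501-152904601: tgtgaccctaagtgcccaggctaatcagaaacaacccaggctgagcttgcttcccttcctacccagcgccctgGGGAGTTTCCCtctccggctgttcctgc
Zc3h12c, shared, chr9:52174682-52174782: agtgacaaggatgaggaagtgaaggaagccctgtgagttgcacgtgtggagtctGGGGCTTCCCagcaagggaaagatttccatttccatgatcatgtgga
Cxcl10, KOLPS only, chr5:92348971-92349071: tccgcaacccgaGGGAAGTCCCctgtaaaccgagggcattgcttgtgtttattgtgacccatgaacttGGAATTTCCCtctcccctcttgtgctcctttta
Il1f6, KOLPS only, chr2:24215163-24215263: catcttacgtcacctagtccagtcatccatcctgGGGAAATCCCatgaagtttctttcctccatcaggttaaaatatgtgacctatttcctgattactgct
1700011L22Rik, KO only, chr8:79139753-79139853: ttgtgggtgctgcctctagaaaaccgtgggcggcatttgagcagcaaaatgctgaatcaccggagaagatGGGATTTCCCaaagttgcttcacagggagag

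A stretch of chromosome 12 stood apart in the CTCF-KO lists and touched several results. The immunoglobulin heavy chain (Igh) locus, from 113254830 to 116010093 in GENCODE vM21, held 53 of 504 KO p65 peaks (10.5%, 8.13 to 13.5) and 64 of 1752 KOLPS p65 peaks (3.65%, 2.87 to 4.64). The WT list had 0 of 781 peaks there, which allows a share of up to 0.384%, and the WTLPS list had 1 of 5465 (0.0183%). The 13 lists of other antibodies in CTCF-KO cells had 0.0943 to 2.74% of their peaks in the locus, and the 13 matching lists in CTCF-WT cells had 0.0117 to 0.268%. STAT5, for example, had 188 of 6850 peaks there in KO and 5 of 8185 in WT. H3K4me1 differed least, with 0.175% in KO and 0.129% in WT. Of the 53 KO p65 peaks in the locus, 52 overlapped a KO CTCF peak, 51 a KO SMC1 peak, 50 a KO H3K27me3 peak and 44 a KO STAT5 peak, while 1 held the NF-κB consensus. Their median fold enrichment was 6.45 and their highest 9.97. The locus holds 113 annotated variable-segment genes of related sequence, so the assignment of reads among them is uncertain. What sets the KO lists apart here was not tested, and the results it moves most are given with and without it.

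**Figure D1:**
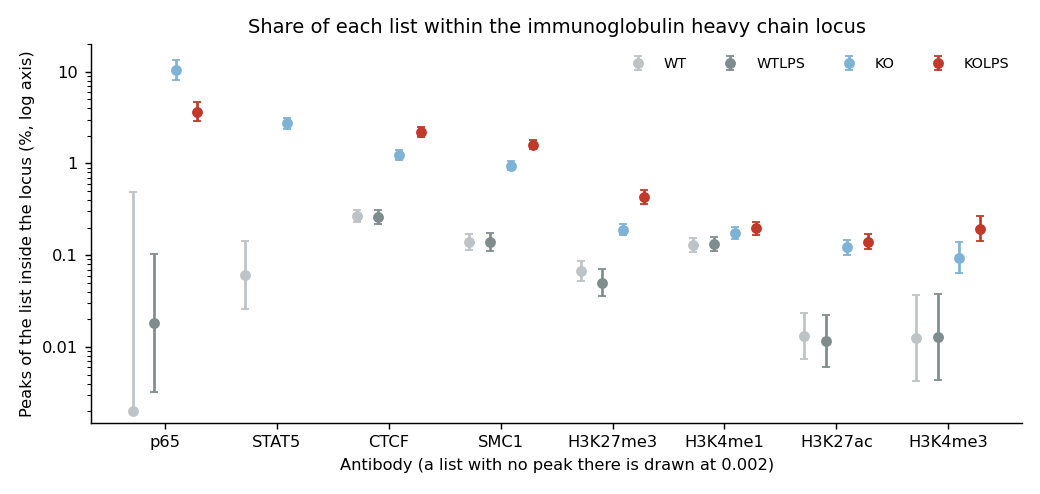
Share of the peaks of each of the 30 lists that lay within the Igh locus, in percent on a log axis, by antibody (STAT5 in WT and KO only). Points are single lists and bars are 95% Wilson intervals; the WT p65 list, with no peak there, is drawn at 0.002. Every KO and KOLPS point sits above the WT and WTLPS points of the same antibody, most of all for p65, at 10.5 and 3.65% against at most 0.0183%.

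After LPS the p65 list of CTCF-KO cells was 3.48 times as long, with 1752 peaks against 504. Of the KO peaks, 400 (79.4%, 75.6 to 82.7) were shared and 104 (20.6%, 17.3 to 24.4) were KO only. Of the KOLPS peaks, 401 (22.9%, 21.0 to 24.9) were shared and 1351 (77.1%, 75.1 to 79.0) were KOLPS only. Most places bound before LPS were thus also called after it, and most places called after it had no peak before. In CTCF-WT cells the list was 6.997 times as long, 93.6% of the WT peaks were shared and 86.7% of the WTLPS peaks had no peak in WT. The background coverage was 0.705 fragments per base in KO and 0.817 in KOLPS. When KOLPS was thinned to the KO coverage, 1689.7 peaks were expected to stay above the KO threshold, 3.35 times the KO number. WTLPS thinned in the same way to the WT coverage and threshold was expected to keep 5.52 times the WT number. The lowest −log10 p was 6.05 in WT and 4.35 in WTLPS, a wider gap than 5.46 in KO and 5.39 in KOLPS. Without the Igh locus, 83.1% of KO peaks were shared (79.4 to 86.3).

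Whether a peak was shared followed its strength. Each list was cut into quintiles by −log10 q. A KOLPS peak was found at 96.0% (90.3 to 98.4) of the strongest quintile of KO peaks and at 53.5% (43.8 to 62.9) of the weakest. A KO peak was found at 60.9% (55.7 to 65.8) of the strongest quintile of KOLPS peaks, at 24.5% (20.3 to 29.3) of the next and at 6.86% of the weakest. In CTCF-WT cells the shares of unstimulated peaks with a peak after LPS ran from 99.4% in the strongest quintile to 84.0% in the weakest. The median fold enrichment over background was 6.45 in KO-only peaks and 8.21 in shared peaks measured in KO. It was 11.6 in the same places measured in KOLPS and 7.15 in KOLPS-only peaks. The median widths in the same order were 219.5, 277, 388 and 261 bp. Places called in 20 or more of the 30 lists made up 41 of the 401 shared KOLPS peaks, 16 of the 1351 KOLPS-only peaks and 0 of the 104 KO-only peaks (a count of 0 allows up to 2.88%).

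**Figure D2:**
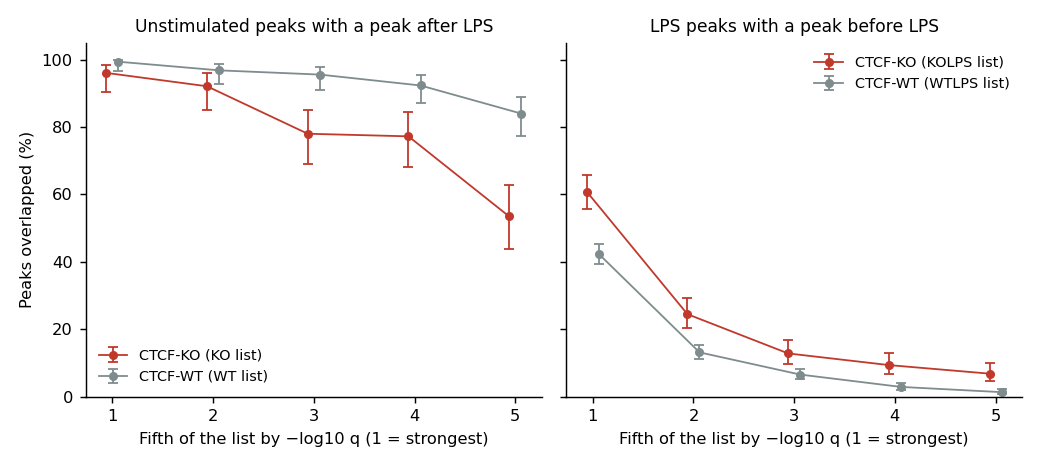
Share of p65 peaks overlapped by a peak of the other condition of the same genotype, in percent, by quintile of the list from the strongest to the weakest −log10 q. Points are shares of a quintile and bars 95% Wilson intervals, for CTCF-KO (red) and CTCF-WT (grey). The share falls from 96.0 to 53.5% in the KO list and from 60.9 to 6.86% in the KOLPS list.

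At shared places the p65 signal was on balance higher after LPS. Signal was taken as the fragments covering the summit divided by the background of the list. The 400 KO peaks and 401 KOLPS peaks formed 403 overlapping pairs, of which 277 (68.7%) were higher in KOLPS, with a median ratio of 1.22 (quartiles 0.922 and 1.73). KOLPS was more than 2-fold higher in 67 pairs and more than 2-fold lower in 3. Distal pairs had a median ratio of 1.26 (294 pairs) and promoter pairs 1.13 (109 pairs). Of the 28 pairs in the Igh locus, 7 were higher in KOLPS, with a median ratio of 0.832, and the 375 pairs elsewhere had a median ratio of 1.27. Among 731 CTCF-WT pairs, 76.1% were higher in WTLPS and the median ratio was 1.41.

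The largest ratio was at a peak in an annotated intron, 299167 bp from the start of Prkg2, a cGMP-dependent protein kinase, with 9 fragments in KO and 41 in KOLPS (ratio 3.93). The Cxcl2 promoter, which serves a chemokine for neutrophils, had 11 fragments in KO and 45 in KOLPS (ratio 3.53). Its place was also called in 22 of the 30 lists. A peak 8067 bp from the start of Mcl1, an anti-apoptotic BCL-2 family member, had 9 fragments in KO and 34 in KOLPS. The lowest ratio was at an intronic peak 35313 bp from the start of Calcrl, a receptor subunit for calcitonin family peptides, with 23 fragments in KO and 7 in KOLPS (ratio 0.263). The promoter of Rras, a small GTPase, had 17 fragments in KO and 9 in KOLPS (ratio 0.457). Values at single places thus differed in both directions, and each of these ratios rests on 1 list per condition and on few fragments.

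**Figure D3:**
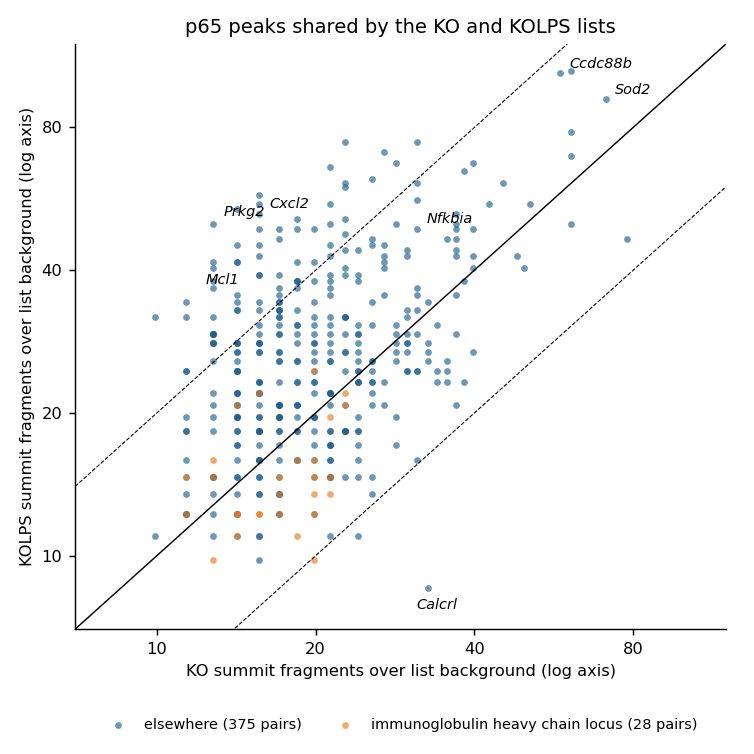
Fragments at the p65 summit over the background of the list, KO on the x axis and KOLPS on the y axis (both log axes), for the 403 overlapping pairs. The solid line marks equal values and the dashed lines 2-fold differences; 277 pairs lie above the solid line, and the 28 pairs of the Igh locus (orange) mostly lie below it.

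Promoters, taken as 2.5 kb to either side of a start site, held 446 of the 1351 KOLPS-only peaks (33.0%, 30.6 to 35.6), 109 of 401 shared KOLPS peaks (27.2%, 23.1 to 31.7) and 32 of 104 KO-only peaks (30.8%, 22.7 to 40.2). Introns held 31.9% of the KOLPS-only peaks and exons 4.00%, and 31.1% lay outside genes. The promoter share of peaks gained with LPS was above that in CTCF-WT cells, where promoters held 18.7% (17.6 to 19.8) of the WTLPS-only peaks. Without the Igh locus, promoters held 32.6% of KOLPS-only, 24.1% of shared KOLPS and 25% of KO-only peaks. The median distance from the summit to the nearest protein-coding start was 18925 bp in KOLPS-only, 23441 bp in shared KOLPS and 54918.5 bp in KO-only peaks, and it was 18729.5 bp in KO-only peaks without the Igh locus. Of 21938 protein-coding genes, 0.342% had a KO p65 peak at the promoter and 1.86% a KOLPS peak. These were 58 genes with a peak in both lists, 17 with a peak in KO alone and 350 with a peak in KOLPS alone.

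Most places that gained p65 already carried enhancer or promoter marks in unstimulated CTCF-KO cells. H3K27ac, which marks active enhancers and promoters, had a KO peak at 76.5% (74.1 to 78.6) of KOLPS-only peaks, against 19.9% of KOLPS p65 intervals moved 10 kb to either side. The cohesin subunit SMC1 had one at 81.9% (79.7 to 83.8), against 8.08% of the moved intervals. H3K4me1, found at enhancers whether active or poised, had one at 72.5% (70.1 to 74.9), against 45.6%. H3K4me3 had one at 37.2% (34.7 to 39.8), against 6.71%, and STAT5, the factor that GM-CSF activates, at 25.9% (23.6 to 28.3), against 2.4%. CTCF had one at 4.52% (3.53 to 5.76), against 2.74%, but at 1.90% (1.29 to 2.79) without the Igh locus. H3K27me3, the Polycomb mark of silent genes, had one at 2.44% (1.74 to 3.41), against 6.16%, and at 0.228% without the locus. The H3K4me1 share rests on weak broad peaks: with a −log10 q of at least 5 for the mark it was 2.59%.

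Shared places carried H3K27ac, SMC1 and STAT5 more often than KOLPS-only places did. In unstimulated cells H3K27ac covered 92.5% (89.5 to 94.7) of shared KOLPS peaks and SMC1 94.8% (92.1 to 96.5). STAT5, mapped after renewed GM-CSF without LPS, covered 44.1% (39.4 to 49.0). None of these intervals reached that of the KOLPS-only peaks. After LPS, H3K27ac had a KOLPS peak at 73.6% (71.2 to 75.9) of KOLPS-only peaks and SMC1 at 88.3% (86.5 to 89.9). The SMC1 share was 81.9% before LPS, although the SMC1 list held fewer peaks after it (17241 against 29965). Of the 905 distal KOLPS-only peaks, 669 (73.9%) had H3K27ac before LPS, 69 (7.62%) had it after LPS alone, 145 (16.0%) had H3K4me1 before LPS with no H3K27ac in either list, and 22 (2.43%) had none of H3K27ac, H3K4me1 and H3K27me3. In CTCF-WT cells, 58.3% of 3855 distal WTLPS-only peaks had H3K27ac before LPS and 17.8% after LPS alone.

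**Figure D4:**
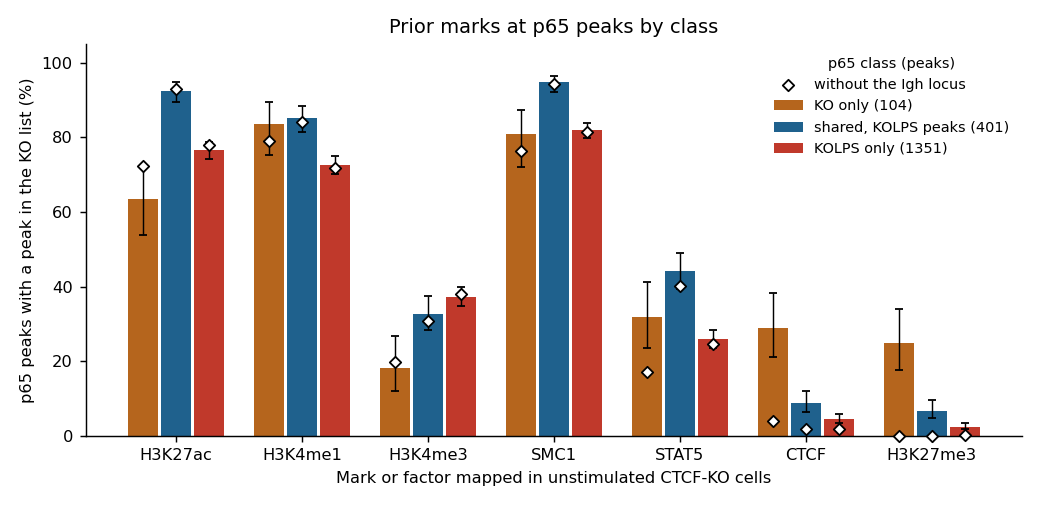
Share of p65 peaks, in percent, that overlap a peak of each mark or factor in unstimulated CTCF-KO cells, for KO-only (brown, 104 peaks), shared (blue, 401 KOLPS peaks) and KOLPS-only peaks (red, 1351). Bars carry 95% Wilson intervals and white diamonds give the share without the Igh locus. For KO-only peaks the diamonds fall to 3.95% for CTCF and 0% for H3K27me3, from 28.8 and 25%.

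The KO-only class changed most when the Igh locus was set aside. With it, 28.8% (21.0 to 38.2) of KO-only peaks had a KO CTCF peak and 25% (17.7 to 34.1) a KO H3K27me3 peak. The H3K27me3 share rests on weak broad peaks: with a −log10 q of at least 5 for the mark it was 0%. Of the 104 KO-only peaks, 28 lay in the locus. Among the other 76, 3.95% (1.35 to 10.97) had CTCF and 0 had H3K27me3, which allows a share of up to 3.95%. Their share with H3K27ac was 72.4%, against 63.5% with the locus, and with STAT5 17.1%, against 31.7%. All 50 KO p65 peaks with H3K27me3 lay in the locus. Outside it, H3K27me3 lay at 3 of 1315 KOLPS-only peaks.

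The degenerate NF-κB consensus lay within 50 bp of the summit in 18.3% (12.02 to 26.8) of KO-only peaks, 20.9% (17.2 to 25.2) of shared KOLPS peaks and 10.1% (8.64 to 11.9) of KOLPS-only peaks. Windows of the same length 1 kb to either side held it in 0.481%, 1.25% and 0.962%. It was in 0.985% of summit windows of all KO H3K27ac peaks and in 2.71% of those of all KO SMC1 peaks. In all KO peaks the share was 23.0% and in all KOLPS peaks 12.6%. The CTCF-WT lists had 29.96% before and 11.9% after LPS. Within the KOLPS-only class the share was 9.63% in the strongest quintile and 8.15% in the weakest, and 10.1% at promoters and 10.2% at distal peaks. With 1 mismatch allowed, the shares were 35.6% in KO-only, 44.9% in shared KOLPS and 34.0% in KOLPS-only peaks, and 12.5 to 14.2% in the flanking windows.

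Other motifs of myeloid cells were searched on both strands as literal patterns, which may share letters with each other and with the NF-κB consensus. AP-1 (TGANTCA) was in 11.6% (10.02 to 13.4) of KOLPS-only and 10.7% (8.06 to 14.1) of shared KOLPS windows, against 3.55% of all KO H3K27ac and 7.68% of all KO SMC1 windows. C/EBP (TTGCNNAA) was in 9.47% and 12.97%, against 3.797% and 6.72%. PU.1 (GAGGAAGT), the lineage factor of myeloid cells, was in 3.18% and 5.99%, against 0.834% and 5.09%. The interferon-stimulated response element was in 1.9985% and 2.74%, against 0.903% and 2.14%, and in 1.9985% of the windows 1 kb from the KOLPS-only peaks. STAT (TTCNNNGAA) was in 4.52% and 4.49%, against 2.87% and 3.604%, and in 3.11% and 3.87% of the flanking windows. The response element in KOLPS-only peaks and STAT in shared KOLPS peaks were thus at or near the level of their surroundings. In shared KOLPS peaks the response element (interval 1.54 to 4.84) lay above its flanking windows, at 1.12%. STAT in KOLPS-only peaks (interval 3.53 to 5.76) also lay above its flanking windows. Among the KOLPS-only peaks, 157 had AP-1 and 137 the NF-κB consensus, while their flanking windows held these in 2.48% and 0.962%. A pattern in a window is a description of letters, not of binding.

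Most p65 places of CTCF-KO cells were also p65 places in CTCF-WT cells. Of the KOLPS-only peaks, 897 (66.4%, 63.8 to 68.9) had a WTLPS peak and 186 (13.8%) a WT peak, and 450 (33.3%, 30.8 to 35.9) had neither. Of the shared KOLPS peaks, 365 (91.0%) had a WTLPS peak and 297 (74.1%) a WT peak. KO-only peaks had a WTLPS peak in 54.8% (45.2 to 64.0), and in 75% (64.2 to 83.4) without the Igh locus. So most KO-only places outside the locus were bound by p65 in LPS-stimulated CTCF-WT cells. Of the KO p65 peaks in the Igh locus, 0 of 53 overlapped a peak of either WT list, which allows a share of up to 5.66%. In the other direction, 1242 of the 5465 WTLPS peaks (22.7%, 21.6 to 23.9) had a KOLPS peak, with 65.7% of the shared WTLPS peaks and 16.1% of the WTLPS-only peaks.

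The 450 KOLPS-only peaks found in neither CTCF-WT list differed in place from the 897 with a WTLPS peak. Promoters held 249 of them (55.3%, 50.7 to 59.9), against 21.6% (19.1 to 24.4) of the 897. H3K4me3 covered 60.4% (55.9 to 64.9) before LPS, against 25.3% (22.6 to 28.3), and H3K4me1 43.8% (39.3 to 48.4), against 87.1% (84.7 to 89.1). H3K27ac differed less, at 71.1% (66.8 to 75.1) against 79.2% (76.4 to 81.7). The NF-κB consensus was in 5.78% (3.97 to 8.33), against 12.4% (10.4 to 14.7), and AP-1 in 10.4%, against 12.3%. STAT5 covered 13.6% and 32.0%, and CTCF 10.7% and 1.45%. The 450 were weaker, with a median of 11.5 fragments against 13 and a median fold of 6.60 against 7.71. Without the Igh locus 414 of the 450 were left, with 56.0% at promoters, 6.28% with the consensus, 8.21% with STAT5 and 2.90% with CTCF.

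Genes of the NF-κB pathway and of the LPS response had p65 peaks nearby more often than protein-coding genes in general. Over 9 lists of immune and immediate early genes (198 entries, with Relb in 2 lists), 42 entries (21.2%) had a KO peak within 50 kb of the start and 51.01% a KOLPS peak, against 3.15% and 10.5% of all protein-coding genes. The lists were drawn up for an LPS response with results of these data known and are no independent evidence. A peak near several genes counts for each. The same entries had a WT peak in 30.3% and a WTLPS peak in 77.8%. Among 20 housekeeping genes, 3 (15%) had a KO and 4 (20%) a KOLPS peak within 50 kb. These shares also lay above those of all protein-coding genes.

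NF-κB subunits, IκB proteins and feedback regulators often had a peak nearby in both lists. Of 22 genes, 11 (50%) had a KO and 16 (72.7%) a KOLPS peak within 50 kb, beside 3.15% and 10.5% of all protein-coding genes. At the promoter, 7 (31.8%) had a KO and 8 (36.4%) a KOLPS peak, beside 0.342% and 1.86%. The Nfkbia promoter, whose window with the consensus is printed above, had 22 fragments at its strongest KO peak and 40 at its strongest KOLPS peak. The Tnfaip3 promoter had 26 in KO and 40 in KOLPS. A second Nfkbia promoter peak had 21 and 23, a ratio over background of 0.945, and an intronic peak nearest Tnfaip3 had 26 and 24, a ratio of 0.797. Both inhibitor genes thus had peaks before and after LPS, with ratios on either side of 1. Rel, the c-Rel subunit, had 22 in KO and 27 in KOLPS. Nfkb2, the p100/p52 precursor, had a pair of promoter peaks, 1 with 17 in KO and 20 in KOLPS and the other with 10 and 21. Birc3, an E3 ligase of TNF receptor signalling, had 25 in KO and 21 in KOLPS, and so was lower after LPS before the difference in coverage is counted. Nfkbiz had 14 and 21 fragments and Tnip3 12 and 16. Nfkbib, which encodes IκBβ, had a peak in KOLPS alone, with 9 fragments.

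Of 23 cytokine genes, 5 (21.7%) had a KO and 16 (69.6%) a KOLPS peak within 50 kb, beside 3.15% and 10.5% of all protein-coding genes. The share over all genes rose about as steeply. At the promoter, 2 (8.70%) had a KO and 7 (30.4%) a KOLPS peak, beside 0.342% and 1.86% of all protein-coding genes. The Tnf promoter had 9 fragments in KO and 24 in KOLPS, and the Il1a promoter 20 and 23. Promoter peaks were called in KOLPS alone at Il6 (11 fragments), Il1b (10), Csf1 (10), Il36a (8, annotated as Il1f6) and Il36g (15, annotated as Il1f9). Of these 5, Il36g alone was above the median of the KOLPS list, 13 fragments. Shared peaks nearest the start of Il1b, but outside its promoter, had 17 fragments in KO and 19 in KOLPS, and 20 and 14. A shared peak nearest Il6, outside its promoter, had 16 and 33. Of the 21 chemokine and chemokine receptor genes annotated, 9 (42.9%) had a KO and 15 (71.4%) a KOLPS peak within 50 kb. Ccl3, a chemokine for monocytes and T cells, had 15 promoter fragments in KO and 41 in KOLPS. Ccl9 had 12 and 17, and Ccrl2 12 and 28. Cxcl10 and Cxcl16 had promoter peaks in KOLPS alone, with 11 and 13 fragments.

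Among 23 AP-1 and immediate early genes, 5 (21.7%) had a KO and 16 (69.6%) a KOLPS peak within 50 kb, as among cytokine genes. Over all protein-coding genes these shares were 3.15% and 10.5%. At the promoter, 1 (4.35%) had a KO and 7 (30.4%) a KOLPS peak, beside 0.342% and 1.86% of all protein-coding genes. The promoter of Zfp36, whose protein destabilizes cytokine mRNAs, had a peak in KOLPS alone with 23 fragments. So did Dusp2, a MAP kinase phosphatase, with 19, and the AP-1 members Fosl2, Junb and Jund with 11, 10 and 11. Ier3 had 8 fragments in KO and 12 in KOLPS. Among 20 costimulatory, adhesion and maturation genes, 3 (15%) had a KO and 8 (40%) a KOLPS peak within 50 kb. Cd40, a costimulatory receptor, had a promoter peak in KOLPS alone with 15 fragments, Icam1, an adhesion molecule, one with 16, and Clec4e, the receptor Mincle, one with 21, while Fas had 14 in KO and 24 in KOLPS.

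Among 22 induced enzymes and survival genes, 5 (22.7%) had a KO and 13 (59.1%) a KOLPS peak within 50 kb. The shares over all protein-coding genes were 3.15% and 10.5%. The peak near the start of Sod2, the mitochondrial superoxide dismutase, was the strongest promoter peak of all listed genes, with 50 fragments in KO (fold 29.9) and 75 in KOLPS (fold 41.8). Its summit lay 2.426 kb from the start in KO and 2.419 kb in KOLPS, near the edge of the 2.5 kb promoter window. The place was called in 20 or more of the 30 lists, among them that of KO CTCF. Bcl2a1a and Bcl2a1b, near-identical anti-apoptotic genes whose reads cannot be told apart with certainty, had KOLPS-only promoter peaks with 8 and 14 fragments, the pro-apoptotic gene Bcl2l11 had one with 9 and Pim1 one with 11. Of 22 TLR4 signalling genes, 2 (9.09%) had a KO and 5 (22.7%) a KOLPS peak within 50 kb, and Tbk1, a kinase upstream of IRF3, had a KOLPS-only promoter peak with 21 fragments and Irak3 one with 10. Interferon-stimulated genes had 1 (4.35%) and 4 (17.4%) of 23, beside 3 (15%) and 4 (20%) of 20 housekeeping genes. These counts are too few to order the lists, and in WTLPS the shares were 39.1% and 35%. Among the interferon-stimulated genes, Gbp2 had 14 promoter fragments in KO and 15 in KOLPS. Myeloid and dendritic cell transcription factor genes had 1 (4.55%) and 8 (36.4%) of 22. Of these, 1 (4.55%), Bhlhe40, had a KOLPS promoter peak, beside 1.86% of all protein-coding genes. It had 26 fragments there and no promoter peak in KO. The housekeeping gene B2m, which NF-κB can also regulate, had 18 fragments in KO and 12 in KOLPS.

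**Figure D5:**
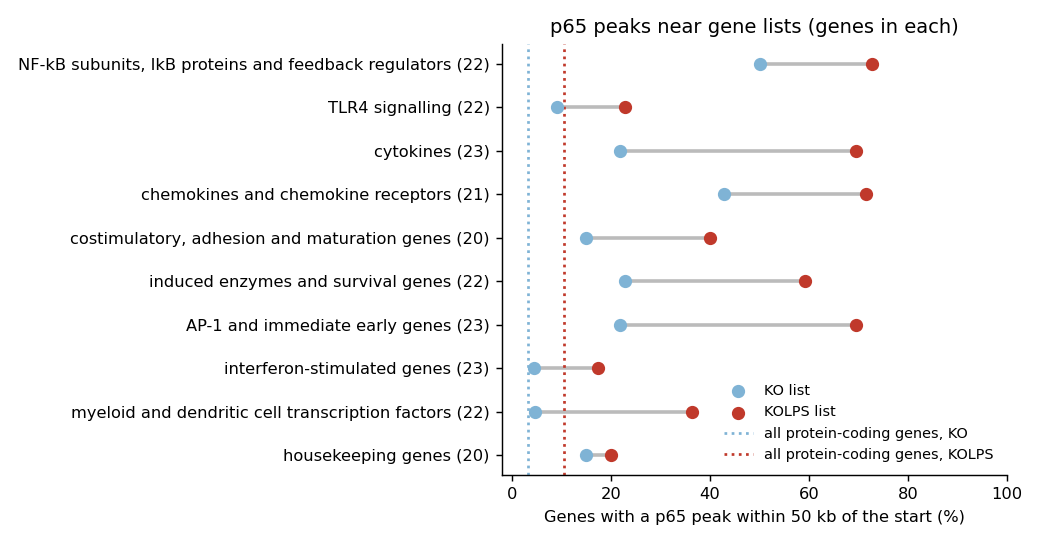
Share of the genes of each list with a p65 peak within 50 kb of the start, in percent, in the KO list (light blue) and the KOLPS list (red), with the number of genes in brackets. Dotted lines give the share of all protein-coding genes, 3.15% in KO and 10.5% in KOLPS. NF-κB regulators, cytokines, chemokines and immediate early genes lie farthest to the right after LPS, and their order among themselves differs at 20 and 100 kb.

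At the fixed loci, the peaks differed in number and place. Il6 had no KO peak within 50 kb and 1 KOLPS peak, at its promoter. H3K27ac, H3K4me1, H3K4me3 and SMC1 peaks were already present there in KO, as was a STAT5 peak after renewed GM-CSF. WTLPS had 4 peaks within 50 kb. Beyond 50 kb, a shared peak with Il6 as its nearest protein-coding gene had 16 fragments in KO and 33 in KOLPS. Il12b, the p40 subunit of IL-12, had no KO peak and 1 KOLPS peak, 9.88 kb upstream of the start with 10 fragments, and 5 peaks in WTLPS. Il12a, the p35 subunit, had no peak within 50 kb in either CTCF-KO list and 1 in WTLPS. Ch25h, which makes 25-hydroxycholesterol, had 1 KOLPS-only peak 24.005 kb from the start, with H3K4me1 and SMC1 but no H3K27ac in KO, and 5 peaks in WTLPS. Tnf had 2 KO and 4 KOLPS peaks within 50 kb, with 3 in WT and 5 in WTLPS. Nfkbia had 2 peaks in each CTCF-KO list, 2 in WT and 5 in WTLPS, and Sod2 1 in each of the 4 lists.

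Acod1, which makes itaconate, had an unusual pattern. Its promoter carried a KO peak with 14 fragments and no KOLPS peak, while 4 KOLPS-only peaks lay 9.86, 17.6, 30.9 and 39.0 kb upstream with 9, 12, 14 and 15 fragments. All 4 had H3K4me1 in KO, and 2 had H3K27ac. WT had 3 peaks and WTLPS 9 within 50 kb. Acod1 was 1 of 11 protein-coding genes with 4 or more KOLPS-only peaks within 50 kb, and 19992 genes had none. Neighbours among the 11 count the same peaks, such as Clec16a with Dexi and Ctsd with Ifitm10, so nearness does not assign a peak to a gene. Among the others, Csf2rb2, a receptor chain of the IL-3 family, had 4 KOLPS-only peaks, all with H3K27ac, H3K4me1 and SMC1 in KO, and no KO peak. Clec16a, an autophagy-related gene, Ankdd1a and the lysosomal protease gene Ctsd also had 4 each. Ctsd had a further shared peak at its promoter, with 11 fragments in KO and 8 in KOLPS.

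The strongest KOLPS-only peaks, taken by −log10 q among places called in fewer than 20 lists, were mostly distal and already marked. Of the top 10, 9 had H3K27ac, 9 H3K4me1 and 9 SMC1 in KO, 5 had STAT5, and 9 had a WTLPS peak. None of the 10 summit windows held the NF-κB consensus, while 2 held AP-1 and 2 C/EBP. The first lay 36842 bp from the start of Ramp3, a receptor activity-modifying protein (chr11:6695214-6695582, fold 26.97, 48 fragments), and had a WT peak with 11 fragments. The second lay in an annotated intron 28888 bp from the start of Ndrg1, with the same fold and 48 fragments. The peak at the promoter of Cdk4, a cell cycle kinase, had 31 fragments and no peak in WT or WTLPS. The promoter of Nr1h3, which encodes the nuclear receptor LXRα, also had a peak with 31 fragments. A distal peak 5113 bp from the start of Cxcl2 had 30.

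The strongest shared peaks were mostly distal too, with 1 of the top 10 at a promoter. Of these 10, 4 held the consensus, all 10 had H3K27ac and SMC1 in KO, and all 10 had a WTLPS peak. The first, 12824 bp from the start of Ccdc88b (chr19:6870576-6871271), had 41 fragments in KO and 85 in KOLPS, with folds of 24.6 and 47.3. A peak 133435 bp from the start of Papss1 had 43 and 64. The peak nearest Ets2, a transcription factor gene, had 28 and 55, and the peak nearest Zc3h12c, a regulatory RNase gene of the Regnase family, had 27 and 53. Near Mylk2, a myosin light chain kinase gene, the values were 15 and 54, with a fold of 30.3 in KOLPS, 6.47 in WTLPS and no peak in WT. All of these were higher in KOLPS, and the list is ranked by its KOLPS value.

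The 5 strongest KO-only peaks were weaker and often bound in CTCF-WT cells. They lay nearest Ptger4, Asns, Cep70, 1700011L22Rik and Slc16a10, with 25, 20, 19, 18 and 16 fragments in KO and no peak in KOLPS. All 5 had a peak in WTLPS and 4 had one in WT. Ptger4 encodes a prostaglandin E2 receptor, and the peak 106379 bp from its start had a fold of 15.2 in KO, 21.6 in WT and 22.6 in WTLPS. The 1700011L22Rik peak, in an intron of Zfp827, was the only one of these with the NF-κB consensus. H3K4me1 lay at all 5 in KO and H3K27ac at 4.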

How the data were processed

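ChIP-seq peak lists were used as deposited. Per the labels and the submitters' processing notes, the authors aligned read pairs to mm10 with BWA 0.7.12, removed duplicates with Picard 1.77 and called peaks with MACS2 2.1.2 (the study's methods name other versions); file names show that problem regions were removed from the p65 lists. The deposited values are the fold enrichment, and p-values and q-values as −log10. Fold is the ratio of fragments at the summit to the background, with the same small constant added to both. The background was a single list-wide value for 92.3% of KO and 93.0% of KOLPS p65 peaks. In the broad H3K4me1 and H3K27me3 lists the deposited values are averages over a region. The whole number of fragments at each summit was recovered from fold and −log10 p, and all p65 peaks matched within 0.002. Overlaps, shares, motif searches and thinning were computed in Python 3.11.15 with numpy 2.4.6, pandas 2.3.3 and scipy 1.17.1, and were tested on simulated data. Genes were those of GENCODE vM21, with the start of the longest transcript, and Cxcl11 and Mx2 were not annotated under those names. Signal depends on antibody, coverage and threshold: the lowest −log10 p was 5.46 in KO and 5.39 in KOLPS, so a peak absent from a list may lie just under it.

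Named peaks were the strongest 10 KOLPS-only, 10 shared and 5 KO-only peaks by −log10 q called in fewer than 20 of the 30 lists. Named genes were list members with a promoter peak, the first 5 genes by KOLPS-only peaks within 50 kb (ties in alphabetical order) and a fixed set of 8 loci. Pairs with extreme ratios, the Igh locus and the split of KOLPS-only peaks by CTCF-WT lists were chosen after the values were seen. Members and lists were chosen with earlier results of these data known. With 1 list per condition no test was run, and the 4 input samples were not analysed here.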

Additional observations from a re-analysis of the deposited data

Results flagged for a closer look

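Several measures moved in opposite directions with LPS in the CTCF-KO and CTCF-WT p65 lists. Of 16 measures computed, 6 did so, each from 1 list per condition, and the difference was not tested. The share of peaks at promoters rose by 4.10 percentage points from KO to KOLPS (27.6 to 31.7%) and fell from WT to WTLPS (19.7 to 18.8%). The share with a prior H3K4me3 peak rose by 8.01 points in CTCF-KO cells (28.2 to 36.2%) and fell in CTCF-WT cells (24.2 to 21.5%). Both kept their opposite directions without the Igh locus. The share with a prior H3K27me3 peak fell by 6.50 points in CTCF-KO cells (9.92 to 3.42%) and rose in CTCF-WT cells (0.896 to 2.20%), and without the Igh locus it was 0% in KO and 0.178% in KOLPS. The other 3 moved little in CTCF-KO cells. The median fold rose by 0.0806 in CTCF-KO cells and fell from 8.17 to 7.01 in CTCF-WT cells. The lowest −log10 p differed as well, at 6.05 in WT and 4.35 in WTLPS, so WTLPS admitted weaker peaks. The share with PU.1 rose by 0.253 points in CTCF-KO cells and fell from 5.38 to 4.19% in CTCF-WT cells, but was 3.99% in KO and 3.97% in KOLPS without the Igh locus. The share with the interferon-stimulated response element fell by 0.410 points (2.58 to 2.17%) and rose in CTCF-WT cells (1.79 to 2.53%).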

How the results depend on the processing

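No paired analysis was possible because each condition has 1 list and the labels give no replicate numbers. The share of KO peaks that were shared (main 79.4%) was 74.8% with summits within 200 bp, 83.9% with −log10 q of at least 5 in both lists, 51.6% against the 504 strongest KOLPS peaks and 83.1% without the Igh locus. The share of KOLPS peaks that were shared (main 22.9%) was 18.4% with at least 50% of its length covered, and 51.2% for the 504 strongest KOLPS peaks. The ratio of peak counts (main 3.48) was 3.87 with −log10 q of at least 5. The promoter share of KOLPS-only peaks (main 33.0%) was 24.8% at 1 kb, 39.6% with all transcript starts and 24.5% with protein-coding genes only. Their H3K27ac share (main 76.5%) was 70.8% with −log10 q of at least 5 for the mark, 58.8% with the summit inside the mark peak, 90.9% with the mark within 500 bp and 79.6% with −log10 q of at least 5 for p65. Their NF-κB consensus share (main 10.1%) was 34.0% with 1 mismatch and 16.7% at 100 bp to either side. The other 21 of these 37 alternatives stayed within the 95% interval of the main value, or within 1.5 times for counts of genes. Outside these, the H3K4me1 share of KOLPS-only peaks was 2.59% with −log10 q of at least 5 for the mark (main 72.5%). Of 142 alternatives for single classes, marks and gene lists, 89 did so. The alternative without the Igh locus was chosen after seeing the data. Depth limits weak peaks, since summits held as few as 7 fragments and medians were 12 in KO and 13 in KOLPS.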
